A study of Mus musculus with 6 samples.

Results

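The proteasome subunits and assembly factors of D10 T cells were taken as all protein-coding genes whose symbol begins with Psma, Psmb, Psmc, Psmd, Psme, Psmf or Psmg followed by a digit, with Adrm1 and Pomp added. This gave 53 of the 41079 genes listed, of which 22255 are protein-coding. D10 is labelled as a cloned helper T cell line of the mouse, CD4+ and of lymph node origin. Cells were kept for 24 h at 26°C (cold-acclimated, 3 replicates) or for 24 h at 37°C (non-acclimated, 3 replicates), in the same medium, and the labels name no other agent for either group. Poly(A)+ RNA was sequenced, and the values are TPM, a measure of transcript abundance in which the reads of a gene are divided by its length and every library adds up to the same sum. The question here was which parts of the proteasome were expressed at a different level after 24 h of mild cold.

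The proteasome degrades proteins that carry ubiquitin chains. Its 20S core is a barrel of alpha and beta rings, in which the beta subunits Psmb5, Psmb6 and Psmb7 hold the active sites. The 19S cap has a base of ATPases that unfold the substrate and a lid that removes its ubiquitin. In lymphocytes, and in other cells under interferon, the immunoproteasome subunits Psmb8, Psmb9 and Psmb10 can replace the catalytic ones, which alters the peptides presented on MHC class I molecules. Other activators (Psme1 to Psme4) can take the place of the cap, dedicated chaperones build core and cap, and the factor NRF1, encoded by Nfe2l1, induces subunit genes when proteasome activity is low.

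By role, the 53 genes comprised 8 of the alpha ring, 7 of the constitutive beta ring, 4 immunoproteasome and thymoproteasome subunits, 10 of the 19S base (with Psmd4 and Adrm1), 8 of the lid, 6 activators and inhibitor, 5 chaperones of the core and 3 of the cap. The remaining 2, Psmc3ip and Psme3ip1, met the naming rule although they are named for binding a proteasome protein and are no subunits. Psma8, a testis subunit, and Psmb11, a thymus subunit, were listed at 0 in all 6 libraries. The other 51 had a mean TPM of at least 1 and were among the 12227 genes tested. They rested on 100 to 16463 reads per gene and library.

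The stretches of DNA just before 4 of these genes, and the gap shared by Psmb9 and Tap1, were picked by expression results, and Psmd12 also by its motif. A role of these sequences in the changes was not tested. Adrm1 is the subunit gene that rose, Psmd12 was higher in all 3 cold-acclimated libraries and also carries a match to the NRF1-type motif, Psme4 fell, and Psmb8, Psmb9 and the peptide transporter gene Tap1 lie side by side in the MHC region. The first 4 come from RefSeq's promoter table (GRCm38.p6) and were placed on GRCm39 by their exact match, and the gap was read from GRCm39. Capitals mark TGACNNNGC, the antioxidant-type motif bound by NRF1 with small Maf proteins (Adrm1 and, on the opposite strand, Psmd12), CCGGAAG, an ETS-type motif (Psme4), TTCNNNGAA, a STAT-type motif (Psmb8), and GGGCGG, a GC box (the gap).
Adrm1, chr2:179813131-179813380, + strand: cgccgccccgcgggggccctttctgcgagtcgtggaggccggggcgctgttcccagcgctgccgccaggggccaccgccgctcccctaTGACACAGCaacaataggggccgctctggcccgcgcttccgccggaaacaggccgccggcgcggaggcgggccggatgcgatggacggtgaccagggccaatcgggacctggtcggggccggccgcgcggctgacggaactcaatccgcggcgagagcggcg
Psmd12, chr11:107370104-107370353, + strand: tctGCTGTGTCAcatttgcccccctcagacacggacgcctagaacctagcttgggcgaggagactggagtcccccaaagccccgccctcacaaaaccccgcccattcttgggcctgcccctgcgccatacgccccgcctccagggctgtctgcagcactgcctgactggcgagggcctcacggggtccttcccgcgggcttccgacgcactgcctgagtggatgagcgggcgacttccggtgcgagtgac
Psme4, chr11:30721525-30721752, + strand: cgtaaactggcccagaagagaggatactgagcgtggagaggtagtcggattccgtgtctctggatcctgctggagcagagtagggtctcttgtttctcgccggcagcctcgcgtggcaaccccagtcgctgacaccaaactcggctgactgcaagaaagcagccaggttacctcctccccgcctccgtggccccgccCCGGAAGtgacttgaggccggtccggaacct
Psmb8, chr17:34416919-34417168, + strand: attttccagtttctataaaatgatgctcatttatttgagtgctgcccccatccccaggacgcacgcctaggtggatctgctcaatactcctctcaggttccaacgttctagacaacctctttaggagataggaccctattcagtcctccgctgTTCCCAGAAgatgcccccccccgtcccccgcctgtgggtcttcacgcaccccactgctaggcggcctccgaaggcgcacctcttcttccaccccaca
Psmb9 and Tap1, chr17:34406348-34406529, − strand: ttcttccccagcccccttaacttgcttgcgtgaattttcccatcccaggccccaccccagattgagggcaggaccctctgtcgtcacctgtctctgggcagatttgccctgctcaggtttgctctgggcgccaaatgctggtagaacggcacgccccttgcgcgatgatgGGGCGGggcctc

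In the table, 45 of the 53 genes had an entry, with 49 start sites, and both strands of the 250 bases before each start were searched. TGACNNNGC was found in 12.2% of these 49 windows, in Adrm1, Psmb5, Psmb6, Psmc6, Psmd9 and Psmd12, beside 10.2% of all 32851 windows in the table and 11.7% of the 11513 windows of tested genes. In that order, the log2 fold changes of these genes (cold-acclimated over non-acclimated) were 0.90, 0.07, 0.43, 0.12, 0.61 and 0.64. Of them, only Adrm1 had an adjusted p under 0.05 (limma). CCGGAAG was found in 30.6% of the windows, beside 6.91% of all windows and 14.2% of those of tested genes. GGGCGG was found in 53.1% beside 55.6% for tested genes, CCAAT in 34.7% beside 35.0%, TTCNNNGAA in 4.08% beside 5.91%, and TTCNNTTTC, a simplified interferon-response element, in 6.12% beside 6.08%. CCGGAAG was the one motif of these 6 whose share in the proteasome genes lay far from its share in tested genes. These are matches of letters, not sites shown to be bound.

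Recovered from the steps of the TPM values, the libraries held 16899628 to 31290854 reads. The median of all tested genes was not at 0 but at a log2 fold change of -0.34 (cold-acclimated over non-acclimated), and rescaling the libraries by the median of ratios moved it to 0.02, so changes are also given relative to that median. The libraries of replicate 3 stood apart from the others. Cd4, which defines the labelled cell type, was at 310 and 328 TPM in replicate 3 and at most 1.3 TPM in the other 4 libraries, although the 9 T cell markers together gave 3329 to 4816 TPM and all were tested. Of the B cell markers, 6 of 6 were under 1 TPM on average, and of the macrophage and monocyte markers 4 of 6, with Lyz2 highest in replicate 3 at 11.6 and 14.8 TPM (summed level 2.46 to 21.2 TPM over the 6 libraries). The part of these differences in the results was not tested. In bulk RNA, fewer cells of a kind and less RNA per cell cannot be told apart.

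Among the 51 tested proteasome genes, 0 were upregulated and 3 were downregulated (limma, p adjusted over all tested genes and under 0.05, with a change of 1 or more on the log2 scale). The 3 were the alternative activator Psme4, the core chaperone Psmg2, and Psme3ip1, which is no subunit. Of all tested genes, 2.63% were upregulated and 16.0% downregulated by the same rule. Without the demand on size, 2 genes rose, the ubiquitin receptor Adrm1 and the core chaperone Psmg4, beside 3.3% of all genes, and the same 3 fell, beside 17.4%. The subunits that make up the constitutive core and cap held 0 of the 3 downregulated genes.

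The median log2 fold change of the 51 genes was 0.20, which is 0.54 above the median of all tested genes, or 0.58 after median of ratios scaling, 0.15 after quantile normalization and 0.27 with no filter on low values. Within replicates 1, 2 and 3 it was 0.78, 0.37 and 0.44 above that median. The 32 tested subunits of the constitutive core and cap had a median of 0.27, and their values ran from -0.53 to 0.90. Of these 32, 30 lay above the median of all tested genes, and 26 (81.2%) were above 0, beside 33.5% of all tested genes. After median of ratios scaling 31 of the 32 were above 0, beside 51.1% of all tested genes, and after quantile normalization 26, beside 51.6%. Their spread was small, with an SD over genes of 0.32 beside 0.88 for all tested genes. Their median level in non-acclimated cells was 246 TPM, beside 23.5 TPM for all tested genes, and no set of like abundance was compared. The 19 other tested genes had a median of -0.42 and an SD of 0.88. No test was run on these lists as a whole.

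Together the 53 genes gave 1.10%, 1.41% and 1.34% of all TPM in non-acclimated and 1.33%, 1.27% and 1.61% in cold-acclimated cells. The ranges overlapped. In 11 of the 32 core and cap subunits the 3 cold-acclimated libraries all lay above the 3 non-acclimated ones, and in 0 all lay below. Over all 51 genes the numbers were 14 and 7, beside 9.69% of all tested genes with every cold-acclimated library higher and 31.4% with every one lower.

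**Figure D1:**
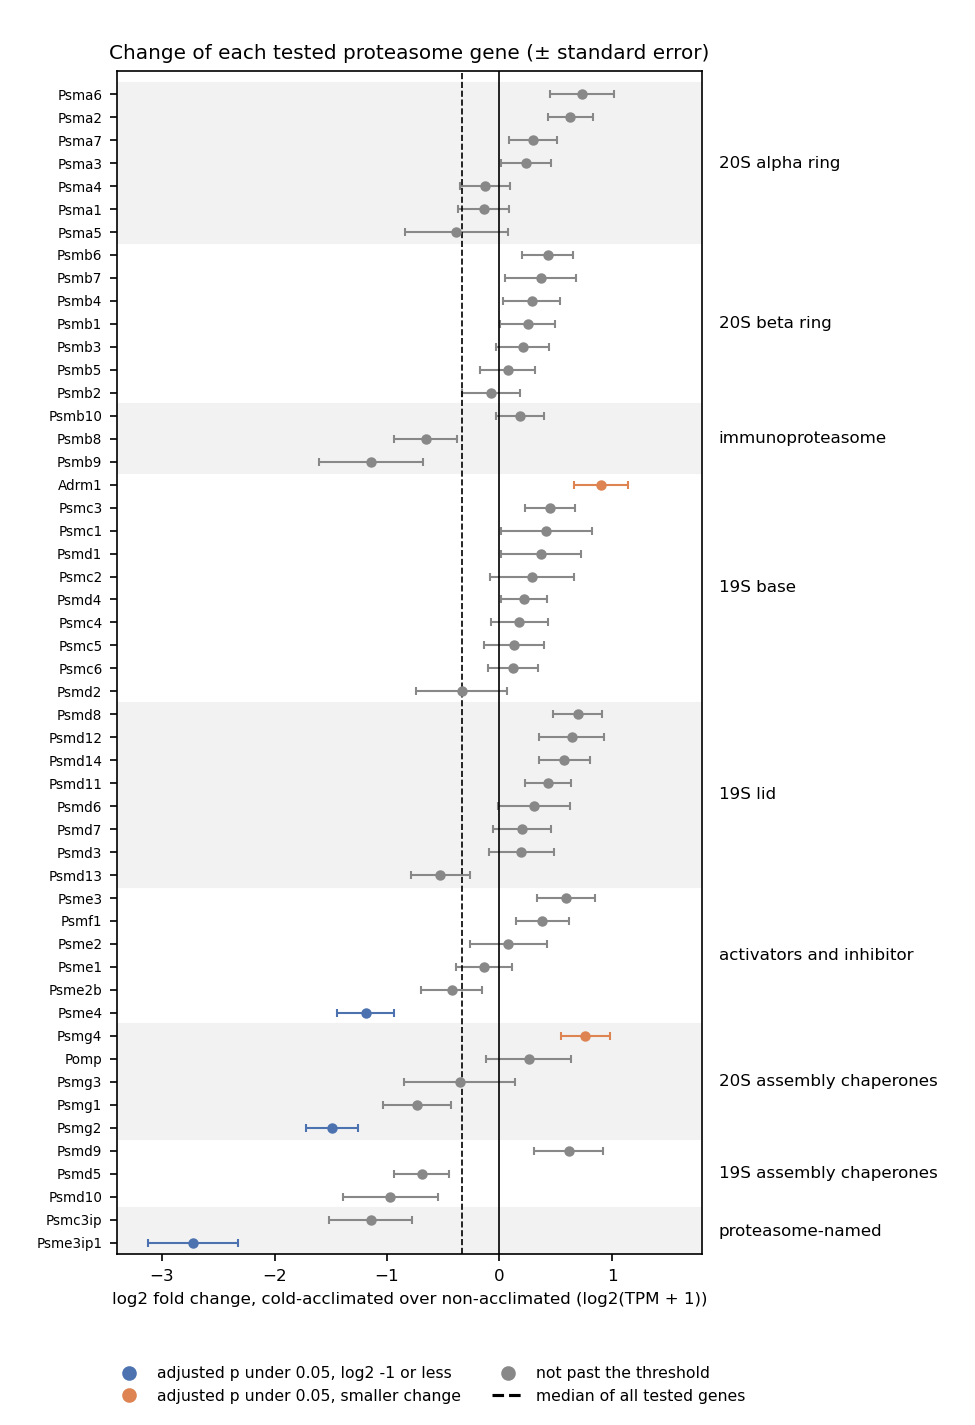
Log2 fold change (x axis, log2(TPM + 1), cold-acclimated over non-acclimated, 3 libraries each) of the 51 tested genes, grouped by role, with bars of 1 standard error. Most core and cap subunits sit to the right of the dashed median of all tested genes (-0.34), while Psme4, Psmg2 and Psme3ip1 lie at -1.19, -1.49 and -2.72.

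The number of genes that passed depended on the scaling. After median of ratios scaling, 6 genes were upregulated (Adrm1 at 1.30, Psmg4 at 1.16, Psma6 at 1.13, Psmd8 at 1.09, Psmd12 at 1.04 and Psma2 at 1.03, log2), beside 6.56% of all tested genes, and 2 were downregulated, beside 8.8%. At an adjusted p under 0.05 of any size, 12 were then higher, beside 8.33%, and 3 lower, beside 9.59%. With the replicate number as a term in the fit of the deposited TPM, 0 genes were upregulated (3.75% of all tested genes) and 4 downregulated (21.9%), while 6 were higher at any size, beside 6.89%, and 5 lower, beside 29.0%. Those 6 were Adrm1, Psmg4, Psma2, Psma6, Psmd8 and Psmd12, the same genes that were upregulated after the scaling. Without both libraries of replicate 3, 1 gene was upregulated, beside 5.34% of all tested genes, and 5 were downregulated, beside 25.3%, while 3 were higher at any size, beside 6.85%, and 6 lower, beside 28.5%.

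The alpha ring forms the gate of the core. Of its 7 tested genes, 0 passed the test, and their log2 fold changes ran from -0.38 for Psma5 to 0.73 for Psma6. Psma6 measured 188, 270 and 267 TPM in non-acclimated and 348, 329 and 548 TPM in cold-acclimated cells (log2 fold change 0.73, SE 0.28, adjusted p = 0.10). Psma2 gave 239, 271 and 258 TPM against 410, 364 and 418 TPM (0.63, SE 0.20, adjusted p = 0.062). For Psma6, Psma2 and Psma7 every cold-acclimated library lay above every non-acclimated one. Psma1, Psma4 and Psma5 had log2 fold changes of -0.14, -0.13 and -0.38, which turned to 0.26, 0.27 and 0.01 after median of ratios scaling. Psma5 overlapped widely, with 206, 447 and 379 TPM against 169, 197 and 470 TPM.

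The constitutive beta ring carries the catalytic sites. Its 7 genes had log2 fold changes from -0.07 for Psmb2 to 0.43 for Psmb6, and 0 passed the test. Psmb6, which encodes the caspase-like site, was at 130, 182 and 176 TPM in non-acclimated and at 235, 209 and 208 TPM in cold-acclimated cells (0.43, SE 0.22, adjusted p = 0.21). It was the one beta gene whose groups did not overlap. Psmb7, the trypsin-like site, was at 676, 1289 and 645 TPM against 1011, 1224 and 971 TPM (0.36, SE 0.32, adjusted p = 0.45). Psmb5, the chymotrypsin-like site, was at 55.8, 68.9 and 68.4 TPM against 71.1, 52.6 and 81.8 TPM (0.07, SE 0.25, adjusted p = 0.87). Per length, the Psmb5 transcript was thus the lowest of the 14 constitutive core subunits tested, and Psmb7 the highest, with means 13.5-fold apart in non-acclimated and 15.6-fold apart in cold-acclimated cells.

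Of the immunoproteasome subunits, 0 passed the test. Psmb8, the counterpart of Psmb5, was at 779, 796 and 868 TPM in non-acclimated and at 449, 404 and 753 TPM in cold-acclimated cells (-0.66, SE 0.28, adjusted p = 0.13). The groups did not overlap, but the cold-acclimated library of replicate 3 lay close to the non-acclimated ones, and without it the value was -0.93 with an adjusted p of 0.024. Leaving out other single libraries gave adjusted p of up to 0.36 for Psmb8. After median of ratios scaling its value was -0.26 (adjusted p = 0.49). Psmb9, the counterpart of Psmb6, was at 599, 428 and 165 TPM against 177, 127 and 174 TPM (-1.14, SE 0.46, adjusted p = 0.11). Here the non-acclimated library of replicate 3 was already at the level of the cold-acclimated cells. Without both libraries of replicate 3, a setting chosen after seeing the data, the log2 fold change of Psmb9 was -1.75 with an adjusted p of 0.0087. Without the non-acclimated one alone it was -1.68 with an adjusted p of 0.017. Leaving out other single libraries gave adjusted p of up to 0.29 for Psmb9. After median of ratios scaling its value was -0.74 (adjusted p = 0.28). Psmb10, the counterpart of Psmb7, was at 106, 139 and 122 TPM against 144, 145 and 126 TPM (0.18, SE 0.21, adjusted p = 0.58), and its groups overlapped.

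The ratio of each immunoproteasome gene to its constitutive counterpart within a library does not depend on the scaling between libraries. Psmb8/Psmb5 was 14.0, 11.6 and 12.7 in non-acclimated and 6.32, 7.70 and 9.21 in cold-acclimated cells, a log2 difference of -0.73 (SE 0.18). All 3 cold-acclimated ratios were lower. Psmb9/Psmb6 was 4.60, 2.35 and 0.93 against 0.75, 0.61 and 0.84 (log2 difference -1.58, SE 0.68). It too did not overlap between the groups, and the differences within replicates 1, 2 and 3 were -2.61, -1.96 and -0.16. Psmb10/Psmb7 was 0.157, 0.108 and 0.189 against 0.142, 0.118 and 0.130 (-0.18, SE 0.25). The two-sided exact permutation test over libraries gave p = 0.1, 0.1 and 0.5 (0.15, 0.15 and 0.5 adjusted over the 3 ratios), and 0.1 is the smallest p that 3 against 3 libraries allow. Psmb8 was the more abundant partner in all 6 libraries and Psmb10 the less abundant in all 6, while Psmb9 went from above to below Psmb6 in replicates 1 and 2.

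**Figure D2:**
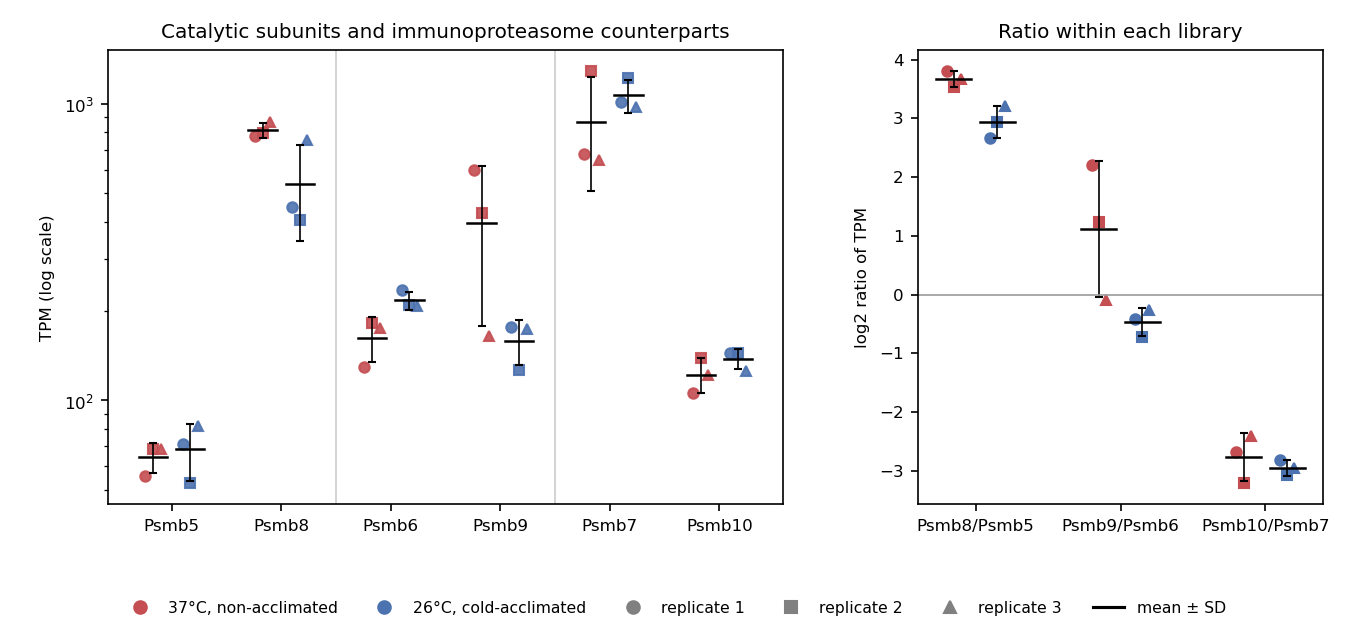
Left, TPM on a log axis of the catalytic subunits beside their immunoproteasome counterparts in each library (points, with mean ± SD, n = 3). Right, log2 ratio of each pair within a library, which for Psmb8/Psmb5 did not overlap between 37°C (11.6 to 14.0 as a linear ratio) and 26°C (6.32 to 9.21).

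On mouse chromosome 17 the transporter gene Tap1 lies between Psmb9 and Psmb8, with Tap2 beyond, all within 34290 bases. The starts of Psmb9 and Tap1 point away from each other across the gap of 182 bases printed above. Tap1 was at 333, 350 and 154 TPM in non-acclimated and 153, 156 and 131 TPM in cold-acclimated cells (-0.84, SE 0.34, adjusted p = 0.12, and 0.037 with the replicate number as a term), so that, as for Psmb9, replicate 3 at 37°C stood with the cold-acclimated libraries. Without both libraries of replicate 3 the value of Tap1 was -1.14 with an adjusted p of 0.012. After median of ratios scaling it was -0.44 (adjusted p = 0.40). Tap2 had a log2 fold change of 0.14 (adjusted p = 0.67).

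The 19S base unfolds substrates and holds ubiquitin receptors. Adrm1 (Rpn13), which binds ubiquitin and docks the deubiquitinase Uchl5, was at 161, 199 and 256 TPM in non-acclimated and at 386, 347 and 401 TPM in cold-acclimated cells. Its mean was 1.84 times as high after cold acclimation, with a log2 fold change of 0.90 (SE 0.24, adjusted p = 0.038), and all 3 cold-acclimated libraries were higher. Leaving out 1 library gave an adjusted p of 0.030 without the non-acclimated replicate 3 and of 0.052 to 0.124 without any of the other 5, with the log2 fold change between 0.74 and 1.07, and with no filter on low values the adjusted p was 0.058. Uchl5 itself was at 102, 191 and 127 TPM against 67.2, 70.8 and 175 TPM (-0.52, adjusted p = 0.41). The other ubiquitin receptor, Psmd4 (Rpn10), was at 301, 342 and 288 TPM against 387, 351 and 345 TPM (0.22, SE 0.20, adjusted p = 0.47), with no overlap but a small difference. Of the 6 ATPase genes Psmc1 to Psmc6, 0 passed, with log2 fold changes from 0.12 for Psmc6 to 0.45 for Psmc3. The large scaffolds Psmd1 and Psmd2 were at 0.37 and -0.34, and Psmd2 turned to 0.06 after median of ratios scaling.

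In the lid, 0 of 8 genes passed the test and 7 had a log2 fold change above 0. Psmd14 (Rpn11), the deubiquitinase of the lid, was at 206, 244 and 165 TPM in non-acclimated and at 306, 287 and 315 TPM in cold-acclimated cells (0.57, SE 0.23, adjusted p = 0.11). The groups did not overlap for Psmd14, Psmd8, Psmd11 and Psmd12. Psmd8 gave the lowest adjusted p of the lid, 0.061, at a log2 fold change of 0.69. Psmd12 was at 139, 208 and 252 TPM against 277, 263 and 382 TPM (0.64, SE 0.29, adjusted p = 0.15). Psmd13 was the exception, with 161, 224 and 191 TPM against 116, 112 and 176 TPM (-0.53, SE 0.26, adjusted p = 0.19).

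The activators did not share a direction. Psme4 (PA200), a large activator found in the nucleus, was at 32.9, 43.3 and 31.2 TPM in non-acclimated and at 12.6, 14.9 and 17.9 TPM in cold-acclimated cells. It fell by 1.19 on the log2 scale (SE 0.25, adjusted p = 0.020), to 0.422 of its mean, and every cold-acclimated library was lower. After median of ratios scaling the value was -0.81 (adjusted p = 0.048), short of the size demanded, and after quantile normalization -0.75 (adjusted p = 0.068). Leaving out replicate 1 or 2 of either group gave adjusted p of 0.063 to 0.088. On the genome Psme4 overlaps Erlec1 on the other strand, which measured 15.6, 13.9 and 6.07 TPM against 14.9, 12.3 and 8.27 TPM, and the strand setting of the counting is not given in the sources used here. Psme3 (PA28 gamma), a nuclear activator, was at 150, 213 and 258 TPM against 289, 337 and 292 TPM (0.59, SE 0.26, adjusted p = 0.14), again with no overlap.

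Psme1 and Psme2, which together form the interferon-inducible activator PA28, showed smaller differences. Psme1 was at 475, 400 and 316 TPM against 423, 336 and 315 TPM (-0.14, SE 0.25, adjusted p = 0.72), and its sign turned to 0.26 after median of ratios scaling. Psme2 was at 238, 358 and 150 TPM against 205, 268 and 275 TPM (0.08, SE 0.34, adjusted p = 0.90). Psme2b, a copy of Psme2 on chromosome 11, was at 142, 193 and 120 TPM against 87.1, 121 and 128 TPM, and its transcript was 96.3% identical to that of Psme2 over 837 bases, so the split of reads between them is uncertain. Psmf1 (PI31), named as an inhibitor of the core, was at 27.9, 25.4 and 23.9 TPM against 42.2, 30.7 and 29.6 TPM (0.38, SE 0.24, adjusted p = 0.29), with no overlap.

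Of the 5 chaperones that build the core, 1 rose and 1 fell. Psmg2 (PAC2), which pairs with Psmg1 to assemble the alpha ring, was at 73.6, 82.4 and 86.9 TPM in non-acclimated and at 24.6, 25.5 and 35.5 TPM in cold-acclimated cells. It fell by 1.49 on the log2 scale (SE 0.23, adjusted p = 0.0093), to 0.352 of its mean, in all 3 replicates, and without the non-acclimated replicate 2 its adjusted p was 0.052. Psmg1 was at 80.9, 89.5 and 116 TPM against 61.8, 38.3 and 75.3 TPM (-0.73, SE 0.30, adjusted p = 0.12, and 0.047 with the replicate number as a term). After median of ratios scaling Psmg1 was at -0.34 (adjusted p = 0.40). In the TPM as deposited, both partners of this dimer had every cold-acclimated library below every non-acclimated one, as had 31.4% of all tested genes.

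The second dimer, of Psmg3 and Psmg4, went differently. Psmg4 (PAC4) was at 34.5, 36.2 and 45.3 TPM against 71.4, 66.2 and 60.7 TPM, and rose by 0.76 on the log2 scale (SE 0.22, adjusted p = 0.046). Its adjusted p was 0.129 to 0.155 without replicate 1 or 2 of either group, 0.071 with limma-voom on the recovered reads and 0.057 without the mean-variance trend. Psmg3 (PAC3) was at 30.6, 63.6 and 118 TPM against 33.8, 47.3 and 68.3 TPM (-0.35, SE 0.49, adjusted p = 0.64), and its groups overlapped widely. Pomp, the maturation factor on which the beta ring forms, was at 296, 439 and 688 TPM against 413, 479 and 776 TPM (0.26, SE 0.38, adjusted p = 0.66). It was higher at 26°C within each replicate, by 0.48, 0.12 and 0.17 on the log2 scale, and its spread between replicates was larger than that difference.

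Of the 3 chaperones of the cap, 0 passed the test. Psmd5 was at 119, 137 and 124 TPM against 92.2, 59.3 and 86.7 TPM (-0.69, SE 0.24, adjusted p = 0.079), with no overlap. Psmd10 (gankyrin) was at 57.9, 64.7 and 46.7 TPM against 25.4, 15.9 and 53.8 TPM (-0.97, SE 0.42, adjusted p = 0.14). Without both libraries of replicate 3, a setting chosen after seeing the data, its log2 fold change was -1.56 with an adjusted p of 0.012. Without the cold-acclimated one alone it was -1.43 with an adjusted p of 0.013. Leaving out other single libraries gave adjusted p of up to 0.36 for Psmd10. After median of ratios scaling its value was -0.58 (adjusted p = 0.30). Psmd10 overlaps Atg4a on the other strand, which at 29.2, 41.6 and 37.6 TPM against 14.2, 10.8 and 38.0 TPM had the same order of libraries at 26°C. Psmd9 was at 14.1, 16.0 and 25.3 TPM against 27.6, 21.9 and 35.8 TPM (0.61, SE 0.31, adjusted p = 0.19).

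**Figure D3:**
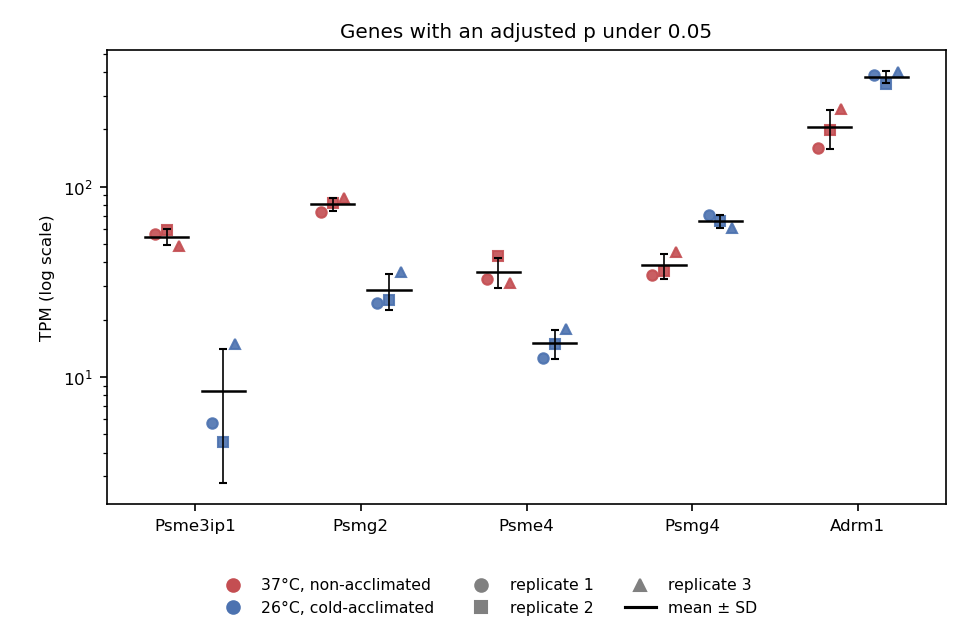
TPM on a log axis of the 5 genes with an adjusted p under 0.05 in each library (points) with mean ± SD (n = 3). Psme3ip1, Psmg2 and Psme4 were lower and Psmg4 and Adrm1 higher at 26°C in every library, and Psme3ip1 of replicate 3 at 26°C (14.9 TPM) lay above the other cold-acclimated libraries (5.75 and 4.57 TPM).

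Of the genes that bear a proteasome name without being subunits, Psme3ip1, whose product binds the activator Psme3, had the largest difference of all 51. It was at 56.3, 59.1 and 48.7 TPM in non-acclimated and at 5.75, 4.57 and 14.9 TPM in cold-acclimated cells and fell by 2.72 on the log2 scale (SE 0.40, adjusted p = 0.0084), to 0.153 of its mean. It shares 293 bases on the same strand with Gm57522, which was at 13.9, 19.5 and 18.0 TPM against 2.09, 1.53 and 3.88 TPM, so reads in that stretch may belong to either. Psmc3ip (Hop2), known from meiotic recombination, was at 45.7, 43.2 and 49.7 TPM against 29.5, 10.8 and 25.7 TPM (-1.15, SE 0.37, adjusted p = 0.065, and 0.025 with the replicate number as a term). After median of ratios scaling it was at -0.76 (adjusted p = 0.17). Psmc3ip overlaps Mlx on the other strand over 1796 bases, and Mlx was at 70.2, 74.1 and 99.2 TPM against 53.3, 23.3 and 48.6 TPM.

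Set against the median of all tested genes, the 4 parts of the constitutive proteasome were at 0.57 for the alpha ring, 0.59 for the beta ring, 0.59 for the base and 0.71 for the lid. Within the single replicates they ran from 0.33 (beta ring, replicate 2) to 0.95 (lid, replicate 1). After quantile normalization the same 4 values were 0.26, 0.16, 0.21 and 0.36. The activators and inhibitor were at 0.31 (-0.083 after quantile normalization), the chaperones of the core at -0.016 (0.019 after median of ratios scaling) and those of the cap at -0.36. Neither group of chaperones kept its sign over replicates 1, 2 and 3. The values were 0.46, 0.025 and -0.37 for the core chaperones and -0.040, -0.76 and 0.44 for the cap chaperones. The immunoproteasome genes were at -0.47 and -0.53 in replicates 1 and 2 and at 0.29 in replicate 3.

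**Figure D4:**
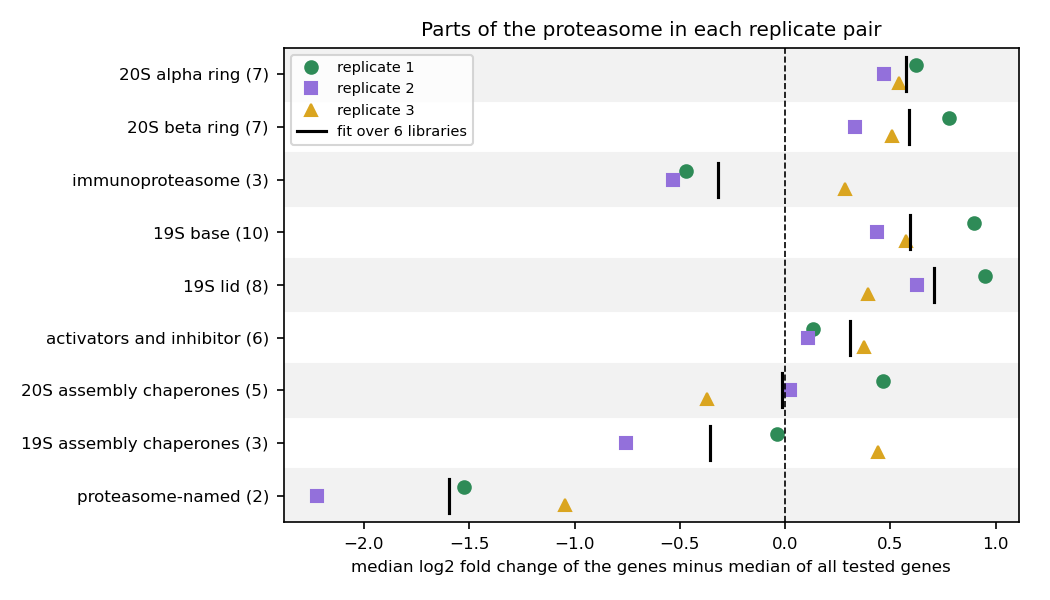
Median log2 fold change of each part minus that of all tested genes (x axis), in each replicate (points) and in the fit over 6 libraries (bars), with the number of tested genes in brackets. Core rings, base and lid lie between 0.33 and 0.95 in all 3 replicates, whereas the immunoproteasome lies at -0.47, -0.53 and 0.29.

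Of the genes that work with the proteasome, 18 partners and ubiquitin receptors were tested (1 further entry of the list had no match). Of these 18, 0 were upregulated and 1 was downregulated, beside 2.63% and 16.0% of all tested genes. Zfand5, which is known to bind and stimulate the proteasome, was at 23.9, 18.4 and 21.4 TPM against 9.79, 7.59 and 8.91 TPM and fell by 1.18 on the log2 scale (adjusted p = 0.018). After median of ratios scaling Zfand5 was at -0.81 (adjusted p = 0.058), so the call was lost there. Zfand2a, a stress-induced relative of Zfand5, was at 21.1, 25.3 and 36.7 TPM against 44.8, 50.6 and 95.4 TPM, and its log2 fold change of 1.13 did not pass as reported (adjusted p = 0.059). It was upregulated with the replicate number as a term (adjusted p = 0.010), after median of ratios scaling (1.51, adjusted p = 0.022) or quantile normalization (1.47, adjusted p = 0.028), with limma-voom (1.27, adjusted p = 0.039) and without both libraries of replicate 3 (1.01, adjusted p = 0.021). Sem1, a small subunit of the lid that the naming rule does not take in, was at 570, 394 and 451 TPM against 599, 552 and 478 TPM (0.21, adjusted p = 0.55).

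Of 8 genes of the NRF1 pathway, 2 were upregulated and 0 downregulated, beside 2.63% and 16.0% of all tested genes. In this list 1 further gene fell without reaching that size. Nfe2l1 itself was at 196, 155 and 94.0 TPM against 98.7, 112 and 114 TPM (-0.39, SE 0.30, adjusted p = 0.38), with groups that overlapped. The upregulated genes encode small Maf proteins, the DNA-binding partners of NRF1. Mafk was at 19.5, 23.8 and 37.2 TPM against 64.3, 107 and 93.5 TPM (1.70, adjusted p = 0.014) and Maff at 3.78, 1.48 and 2.1 TPM against 11.1, 9.98 and 6.45 TPM (1.58, adjusted p = 0.022). Ngly1, the glycanase that processes NRF1, was at 32.4, 24.0 and 31.5 TPM against 13.9, 12.1 and 19 TPM and fell by 0.93 (adjusted p = 0.045), which became -0.55 (adjusted p = 0.15) after median of ratios scaling. Nfe2l2, which encodes the related factor NRF2, was at 24.3, 28.8 and 28.0 TPM against 15.9, 17.5 and 14.9 TPM (-0.71, adjusted p = 0.056, and 0.040 with the replicate number as a term). After median of ratios scaling Nfe2l2 was at -0.33 (adjusted p = 0.32).

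Among 6 ubiquitin precursor and E1 genes, 0 were upregulated and 1 was downregulated, beside 2.63% and 16.0% of all tested genes. Uba6, an E1 enzyme, was at 50.3, 58.6 and 46.9 TPM against 17.9, 23.0 and 16.9 TPM and fell by 1.39 (adjusted p = 0.011). The stress-responsive precursor gene Ubb did not pass, at 1521, 1900.0 and 1763 TPM against 1366, 1877 and 2279.7 TPM (0.07, adjusted p = 0.89).

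Of 12 tested genes of antigen processing, 0 were upregulated and 1, not reported here, was downregulated, beside 2.63% and 16.0% of all tested genes. The median log2 fold change of the list was 0.25 above that of all tested genes. Irf1, an interferon-induced factor known to drive Psmb9 and Tap1, was at 74.0, 63.1 and 48.9 TPM against 28.5, 34.5 and 37.6 TPM. It fell by 0.86 (adjusted p = 0.047), or by 0.46 after median of ratios scaling, where it did not pass (adjusted p = 0.20). As in Psmb9 and Tap1, its lowest non-acclimated value was that of replicate 3. A link of Irf1 to these genes was not tested.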

How the data were processed

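RNA of 3 cold-acclimated and 3 non-acclimated replicates of D10 cells was sequenced. The processing notes of the submitters name FastQC 0.11.7, Trimmomatic 0.38, HISAT2 2.1.0 and featureCounts 1.6.3, with genome build GRCm39. The authors deposited TPM, and how reads were assigned by strand, or which gene lengths were used, is not given in the sources used here. RNA came from old and new extraction batches per the labels, which assign no library to either, so p-values measure the spread between these libraries.

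Reads were recovered from the steps of the TPM values (100% of 21195 genes whole within 1e-06 reads). The main test was that of limma (version 3.58.1, R 4.3.3), fitted to log2(TPM + 1) with its trend option for all 12227 genes whose TPM averaged 1 or more, and p-values were adjusted over all of these (Benjamini-Hochberg). On this scale the fold change of low genes is understated. The thresholds were an adjusted p of 0.05 and a log2 fold change of 1. limma-voom on the recovered reads was an alternative. Ratios were tested by two-sided exact permutation. The remaining work used scipy 1.17.1, pandas 2.3.3, numpy 2.4.6 and matplotlib 3.10.9 under Python 3.11.15. The procedure was tested on simulated data.

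The proteasome genes and all lists were chosen with earlier results of these data known. The genes named with the value of every library are the catalytic and immunoproteasome subunits, the activators and inhibitor, Pomp, Psmd4, Adrm1, Psmd14, Nfe2l1, Nfe2l2, Ubb, Sem1, those with an adjusted p under 0.05 and the 3 largest changes in each direction. Others were named after their values were seen, and some genes that met this rule are not reported here. Same-numbered libraries deviated together from their group means (correlations 0.48, 0.50 and 0.51, against -0.41 to 0.02 for other pairs), so the replicate numbers pair the libraries. The main fit and the permutation test did not use this pairing. Only the fits with the replicate number as a term did.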

Additional observations from a re-analysis of the deposited data

How the results depend on the processing

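The median of the proteasome genes lay above that of all tested genes in every setting tried, by 0.54 as reported, by 0.27 with no filter on low values, by 0.15 after quantile normalization, and by 0.43 to 0.59 when 1 library was left out. The number of upregulated genes, 0 as reported, was 6 after median of ratios scaling, with or without a replicate block, 1 after quantile normalization (Psmg4) and 1 with limma-voom on recovered reads (Adrm1). Among all 12227 tested genes, 321 were upregulated as reported, 802 after median of ratios scaling, 731 after quantile normalization and 408 with limma-voom. At an adjusted p under 0.05 of any size, 2 genes were higher as reported (3.3% of all tested genes) and 12 after median of ratios scaling (8.33%). The block alone gave 6 higher (6.89%) and 5 lower genes (29.0%). With no filter on low values 1 was higher, without the mean-variance trend 1, and with that scaling and the replicate block 24. The share of all tested genes is not given for these last settings, so the 24 cannot be weighed against it. Among the proteasome genes the block changed 1 call at the full threshold, that of Psmc3ip, which was then downregulated. Leaving out 1 library in turn gave 0 to 1 upregulated and 1 to 4 downregulated genes, and 0 to 2 higher and 1 to 5 lower genes. Shares of all tested genes are not given for these fits either. Psme4 then had an adjusted p of up to 0.088 and Psmg2 of up to 0.052, Adrm1 of 0.030 to 0.124 and Psmg4 of 0.039 to 0.155. Without both libraries of replicate 3, a setting chosen after seeing the data, as was the scaling with the block, 1 gene was upregulated (Adrm1) and 5 were downregulated (with Psmb9 and Psmd10), and 6 were lower at any size. The cause of these shifts was not tested.

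Signs that turned belonged to genes that did not pass the test. After median of ratios scaling, with or without the block, Psma1 was at 0.26, Psma4 at 0.27, Psma5 at 0.015, Psmb2 at 0.33, Psmd2 at 0.063, Psme1 at 0.26 and Psmg3 at 0.039. With limma-voom, Psma4 was at 0.0013 and Psmb2 at 0.059. Without both libraries of replicate 3, Psmb5 was at -0.019, Psmc6 at -0.061 and Psme2 at -0.32. With 1 library left out, the lowest and highest values were -0.038 and 0.57 for Pomp, -0.066 and 0.25 for Psmb5, -0.023 and 0.61 for Psmc2, -0.078 and 0.26 for Psmc5, -0.023 and 0.23 for Psmc6, -0.060 and 0.42 for Psmd3, -0.014 and 0.55 for Psmd6, -0.028 and 0.32 for Psmd7, -0.24 and 0.39 for Psme2, -0.84 and 0.11 for Psmg3, and -0.23 and 0.15 for Psmb2. With 3 libraries a group, the ratios of subunits could not pass 0.05 in a permutation test, whatever their size.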
